A study of Cicer arietinum with 5 samples.

Results

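A symmetric CHG dyad is a pair of cytosines that face each other across 3 bases, 1 on the forward strand and the other on the reverse strand 2 bases downstream, with CHG context on both strands (H is A, C or T). The middle base of such a site is A or T, since a C in the middle on either strand would give CCG on that strand and CG on the other. The dyads described here were chosen by their listing: both cytosines had to be called methylcytosines with 5 or more reads in all 5 libraries, with no cytosine listed between them on either strand in any library. The choice therefore rested on measured methylation in both stages. It gave 1203712 dyads out of 2893377 such pairs listed in any library (41.6%), from 40605110 cytosine positions listed in any library and 14128403 listed in all 5.

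DNA came from whole seeds of field-grown Himchana 1, a small-seeded chickpea cultivar, and methylation was read by whole genome bisulphite sequencing, in which unmethylated cytosines are read as T and methylated ones as C. Late-embryogenesis (S3) had 2 libraries and mid-maturation (S5) had 3, each from an independent pool of seeds, and the cultivar, tissue and protocol were shared by all of them. The study took these stages as the most relevant to seed size and weight. The study states that in chickpea the endosperm is fully resorbed before S5. Embryo, endosperm and seed coat were not separated, so that a change in the methylation of a tissue and a change in its share of the seed cannot be told apart.

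In plants, CHG methylation is kept up by CHROMOMETHYLASE 3 (CMT3), which in Arabidopsis binds histone H3 methylated at lysine 9, and histone methyltransferases in turn bind methylated CHG sites. CG methylation is copied by MET1 after replication through the symmetry of the site. Asymmetric CHH sites have no partner on the other strand and are methylated anew, by DRM2 with small RNAs or by CMT2. CHG methylation is typical of transposable elements and repeats and sparse in the bodies of expressed genes.

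Over both strands, the median coverage of a dyad was 33 and 34 reads in S3 replicates 1 and 2 and 33, 24 and 32 reads in S5 replicates 1, 2 and 3, the lowest depth being that of S5 replicate 2. The libraries listed 24562750 to 27777737 lines each, and no listed cytosine had fewer than 5 reads or fewer than 3 methylated reads. A dyad that lost nearly all methylation in a library would not be listed there, and such dyads are outside the set. Of the dyads, 647362 lay on the 8 chromosomes (Ca1 to Ca8, kabuli version 1) and 556350 (46.2%) on 5008 unplaced sequences. The next dyad was at a median distance of 48 bp, and 51.6% of dyads had another within 50 bp. Sequences and gene annotation of this genome version were not used here, and the middle base was therefore inferred from the listing.

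Members at the edge of the rule resembled the rest. The 274532 dyads with a lowest coverage of exactly 5 reads averaged 92.1% and 91.8% at S3, as against 89.6%, 88.9% and 90.3% at S5. Just outside the rule, 544390 pairs lacked a listing in 1 of the 10 entries (2 strands in 5 libraries), and their levels over the listed entries were 90.7% and 90.4% at S3 and 87.8%, 87.1% and 88.5% at S5. The missing entry was in S5 replicate 2 for 42.6% of these pairs.

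The first question was how strongly the dyads were methylated and whether this differed between the stages. The dyad level, which is the percent of methylated reads over both strands, averaged 91.5% and 91.2% in S3 replicates 1 and 2 and 88.9%, 88.2% and 89.6% in S5 replicates 1, 2 and 3. All 3 S5 libraries were below both S3 libraries. The means were 91.3% ± 0.196 over the S3 libraries (SD, n = 2) and 88.9% ± 0.729 over the S5 libraries (SD, n = 3), a difference of -2.42 percentage points (two-sided exact permutation test over all 10 assignments of the stages to the libraries, p = 0.1). This p is the smallest that 2 against 3 libraries can give, so that no comparison of library means here could pass 0.05.

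CG dyads listed in the same way did not share this difference. Over 1586993 CG dyads the level was 93.0% and 92.7% at S3 and 93.0%, 92.7% and 93.3% at S5, with overlapping libraries (difference 0.12 points, exact permutation p = 0.8). The gap between CHG and CG dyads was -1.54 points at S3 and -4.08 points at S5, and the libraries did not overlap in it (difference -2.53 points, exact permutation p = 0.1). Another kind of pair has a CHG cytosine that is followed by a methylated CG, that is, CCG. The partner on the other strand belongs to that CG, so that the pair joins a CHG and a CG cytosine. Over 267669 CCG pairs the level of both cytosines together was 81.2% ± 0.277 over the S3 libraries (SD, n = 2) and 79.5% ± 0.508 over the S5 libraries (SD, n = 3). CHG dyads moved by 0.755 points more than these pairs in the downward direction, as the level gap between them went from 10.1 to 9.37 points (difference -0.755, exact permutation p = 0.1). The outer cytosine of CCG, the CHG member of the pair, was also taken alone, an alternative chosen after the data were seen. It had 69.0% ± 0.389 over the S3 libraries (SD, n = 2) and 65.5% ± 1.02 over the S5 libraries (SD, n = 3). Its difference was -3.44 points, against -2.42 points in CHG dyads, so that the sign of the comparison turned (difference 1.02 points, exact permutation p = 0.2).

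The lower mean came with a broad shift of the levels and not with a few dyads alone. Dyads at 90% or more made up 69.9% ± 1.05 of all dyads over the S3 libraries (SD, n = 2) and 59.2% ± 3.62 over the S5 libraries (SD, n = 3), and the libraries did not overlap (difference -10.8 points, exact permutation p = 0.1). The intermediate classes were larger at S5. Dyads from 60 to under 80% were 6.30% ± 0.226 over the S3 libraries (SD, n = 2) and 11.6% ± 1.67 over the S5 libraries (SD, n = 3), and dyads under 60% were 1.16% ± 0.0336 (SD, n = 2) and 2.65% ± 0.412 (SD, n = 3) in the same order, in both cases without overlap (exact permutation p = 0.1). The class from 80 to under 90% held 22.6% ± 0.792 over the S3 libraries (SD, n = 2) and 26.6% ± 1.58 over the S5 libraries (SD, n = 3) (exact permutation p = 0.2). Dyads with every read methylated made up 13.6% and 12.3% at S3 and 10.8%, 15.9% and 12.5% at S5. This class did not separate the stages (exact permutation p = 0.9), and its highest share was in S5 replicate 2, the shallowest library.

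**Figure D1:**
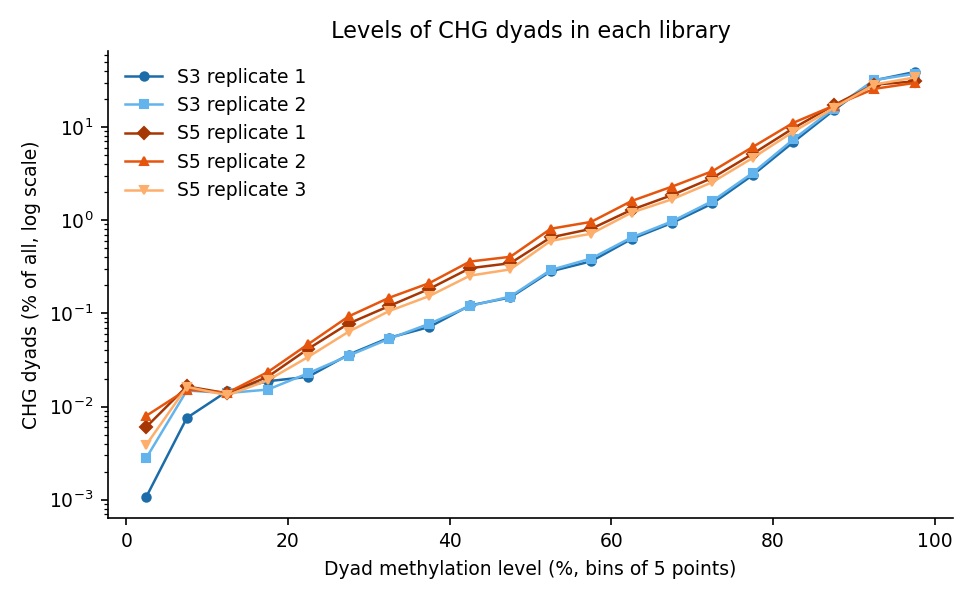
Share of the 1203712 CHG dyads (percent, log axis) in bins of 5 points of the dyad level, 1 line for each of the 2 S3 and 3 S5 libraries. From about 20% to 85% methylation the 3 S5 lines lie above both S3 lines, and in the bins above 90% they lie below them, in keeping with 69.9% of dyads at 90% or more at S3 and 59.2% at S5.

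The same dyads were followed between libraries. Of 850757 dyads at 90% or more in S3 replicate 1, 79.8% were again at 90% or more in S3 replicate 2, against 70.9%, 65.9% and 74.2% in S5 replicates 1, 2 and 3. Going from S3 replicate 1 to S3 replicate 2, 0.697% of all dyads were lower by 20 points or more and 0.596% higher by as much. From S3 replicate 1 to the S5 libraries, 3.03%, 4.71% and 2.51% were lower by this much and only 0.299%, 0.385% and 0.379% higher. The excess was therefore on the side of lower levels in each S5 library.

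How the change depended on the level at S3 was examined with separate reads for each part of the question. Dyads were binned by their level in 1 S3 library, and the change was measured from the other S3 library to the S5 libraries, so that sampling error of the bin did not enter the change. Both assignments were made. Of the 6 bins, those from 40 to under 60% and from 60 to under 80% moved most and the highest levels moved least. For the 73895 dyads at 60 to under 80% in S3 replicate 1, the level was 78.4% in S3 replicate 2 and 71.9%, 70.8% and 73.3% in the S5 libraries. For the 77745 dyads in this range in S3 replicate 2, it was 79.2% in S3 replicate 1 and 72.2%, 71.0% and 73.5% in the S5 libraries. The mean change of the assignments was -6.69 points in this bin and -6.69 points at 40 to under 60%. It was -3.61 points at 80 to under 90%, -1.68 points at 90 to under 100% and -1.17 points for dyads with every read methylated. Every S5 library was below the S3 library in each of these 5 bins and in both assignments.

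The lowest bin gave a smaller and less certain change. Here 2709 dyads under 40% in S3 replicate 1 had 33.5% in S3 replicate 2 and 30.5%, 31.8% and 31.8% in the S5 libraries. In the other assignment, 2836 dyads had 35.3% in S3 replicate 1 and 30.8%, 30.98% and 32.0% in the S5 libraries. The changes were -2.15 and -4.08 points. Binning on the pooled S3 reads turned the value in this bin to 0.20 points, where the reads of the bin and of the change are the same.

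Counted as unmethylated reads, the relation had another shape. The unmethylated share of a dyad at S5 was 1.21 times that at S3 for dyads with every read methylated in the binning library, and 1.26 times at 90 to under 100%. It was 1.34 times at 80 to under 90% and 1.32 times at 60 to under 80%, and it was 1.16 and 1.05 times in the lower bins. In this measure the upper 4 bins differed little, although their changes in points ranged from -1.17 to -6.69. No test was made of the order of the bins.

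**Figure D2:**
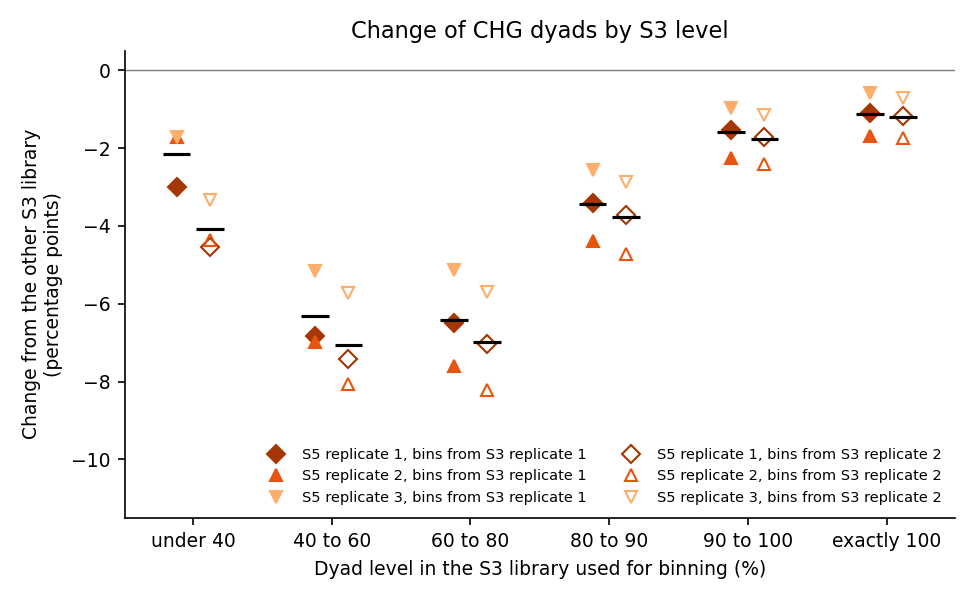
Change in level (percentage points) from the S3 library that was not used for binning to each S5 library, by the dyad level in the S3 library used for binning (filled symbols, bins from S3 replicate 1; open symbols, bins from S3 replicate 2). Black bars are means over the 3 S5 libraries, and all points lie below 0, with mean changes of -6.69 points in the bins from 40 to 80% and -1.17 points at exactly 100%.

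Dyads were then divided by the number of asymmetric cytosines listed within 50 bp. An asymmetric cytosine was one without a listed partner on the other strand 1 or 2 bases downstream, a class that holds CHH sites together with CG and CHG sites whose partner was listed in no library. Most dyads were in the company of many such cytosines: 816991 dyads (67.9%) had 11 or more, 319141 had 6 to 10, 58341 had 3 to 5, 8245 had 1 to 2 and only 994 (0.0826%) had 0.

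Isolated dyads were less methylated, and the gap was wider at S5. Dyads with 0 neighbours had 73.8% and 74.6% at S3, as against 64.4%, 63.8% and 65.6% in the S5 libraries. Dyads with 11 or more had 91.7% and 91.4% at S3 and 89.3%, 88.5% and 89.97% at S5. The differences between S5 and S3 were -9.64 points with 0 neighbours, -5.66 with 1 to 2, -3.32 with 3 to 5, -2.53 with 6 to 10 and -2.26 with 11 or more, without overlap of the libraries in any class (exact permutation p = 0.1 in each). The gap in level between dyads with 11 or more neighbours and those with 0 was 17.8 and 16.7 points in the S3 libraries and 24.9, 24.7 and 24.4 points in the S5 libraries (difference 7.37 points, exact permutation p = 0.1). With 1 to 2 neighbours in place of 0, the gap was 5.58 points ± 0.132 over the S3 libraries (SD, n = 2) and 8.97 points ± 0.237 over the S5 libraries (SD, n = 3) (difference 3.39 points, exact permutation p = 0.1). Counted as unmethylated reads, the mean share went from 25.8% at S3 to 35.4% at S5 with 0 neighbours. It went from 14.1% to 19.7% with 1 to 2 and from 8.48% to 10.7% with 11 or more. Relative to the S3 share, these rises differed much less between the classes than the changes in points.

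The order by neighbours was also present within bins of S3 level. Among dyads at 60 to under 80% in the binning library, the change was -14.3 points with 0 neighbours, -11.8 with 1 to 2, -8.66 with 3 to 5, -6.76 with 6 to 10 and -6.25 with 11 or more. Among dyads at 90 to under 100%, it went from -5.04 points with 0 neighbours to -1.61 points with 11 or more. The mean change was smaller in size at each step up in neighbours in all 6 level bins. At 40 to under 60% the means with 0 and with 1 to 2 neighbours hardly differed (-11.06 and -10.96 points). With bins from S3 replicate 2 their order was reversed there (-9.64 and -10.99 points). The cells with 0 neighbours held few dyads, 269 and 286 at 60 to under 80% in the 2 assignments and 65 and 59 under 40%. The bins did not hold the S3 level equal between the neighbour classes. At 60 to under 80%, the level in the other S3 library was 70.8% with 0 neighbours, 74.7% with 1 to 2 and 79.0% with 11 or more. At 80 to under 90% it was 82.3%, 87.3% and 89.6% in the same order. The part of this remaining difference in S3 level was not tested.

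**Figure D3:**
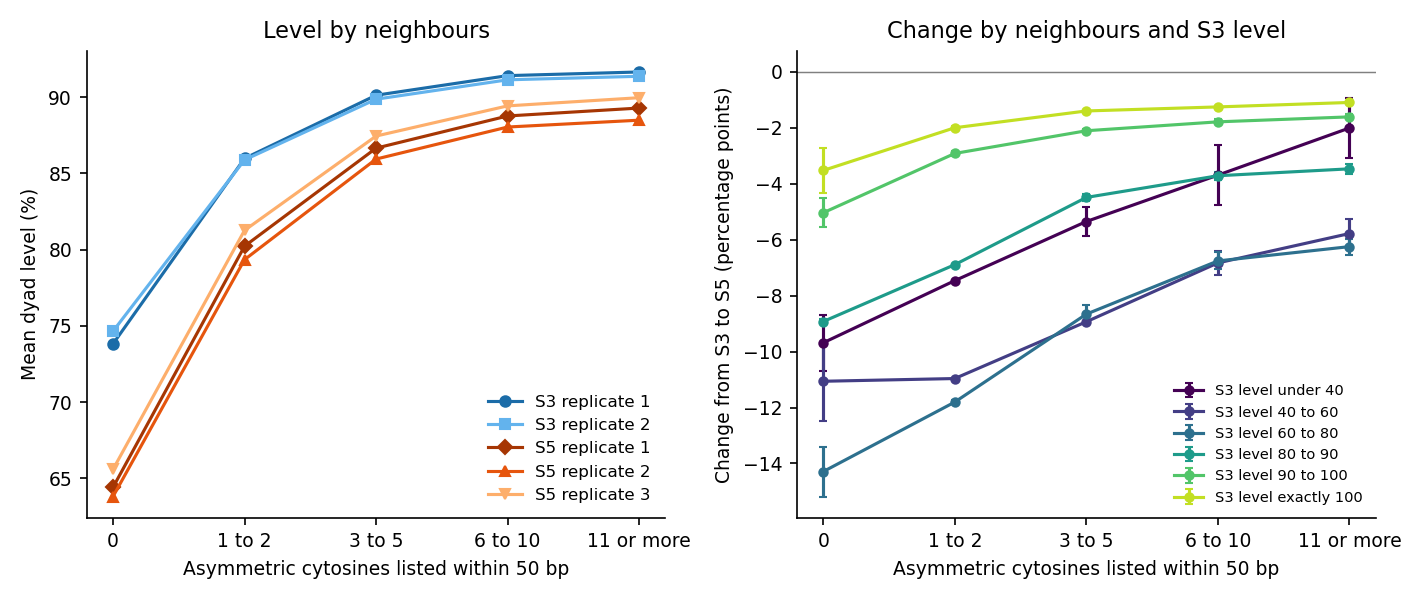
Left, mean dyad level (percent) in each library by the number of asymmetric cytosines listed within 50 bp. Right, change from S3 to S5 (percentage points) for the same classes within bins of S3 level, where points are means of the 2 bin assignments and bars span the 2 assignments. The S5 lines diverge from the S3 lines towards 0 neighbours, where the change is -9.64 points against -2.26 points with 11 or more.

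Neighbours listed in all 5 libraries moved in the opposite direction. Beside dyads with 11 or more neighbours, they had a level of 45.3% and 44.5% at S3 and 49.8%, 48.9% and 51.4% at S5, a difference of 5.12 points. Beside dyads with 1 to 2, the 1299 such neighbours had 46.0% and 45.1% at S3 and 47.8%, 48.6% and 49.8% at S5, a difference of 3.16 points. Within 50 bp, CHG dyads were thus lower and the asymmetric cytosines listed in all 5 libraries higher at S5. Levels of neighbours that were missing from a library were not compared.

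Other properties moved with the number of neighbours. From 0 neighbours upwards, the median coverage of the dyads in a library was 26, 24, 25, 29 and 32 reads, and 56.5%, 39.8%, 36.4%, 43.2% and 59.3% of the dyads were on chromosomes. The number of listed neighbours also depends on how many cytosines the local sequence holds, and the part of base composition was not tested. With 10 or more reads on each strand in every library, the change went from -13.4 points with 0 neighbours to -2.28 points with 11 or more, and on the chromosomes alone it went from -11.8 to -2.37 points. When neighbours were counted in 1 S3 library and the change was taken from the other, it went from -5.77 to -1.90 points and from -6.10 to -2.24 points, and with 1 to 2 neighbours it was -3.37 and -3.64 points. The values for 0 and for 1 to 2 neighbours were thus smaller by over 1.5 times, and the order was the same. With neighbours counted within 100 bp, the change was -11.97 points with 0 and -11.85 points with 1 to 2, so that these classes hardly differed, and it was -6.69, -3.67 and -2.35 points in the classes above.

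Single dyads were compared by logistic regression of methylated reads on stage with a likelihood-ratio test, as the study did for windows, with a limit of q of 0.01 or less (Benjamini-Hochberg over all 11334731 units, that is, CG dyads, CHG dyads, CCG pairs and other cytosines listed in all 5 libraries) and a level difference of 25 points or more. The test treats reads as independent. It called 1271 CHG dyads lower at S5 and 8 higher. This was 0.106% of CHG dyads lower, where 0.0339% of all units were called lower, and 0.000665% higher, where 0.0168% of all units were called higher. Of all units, 8276357 were other cytosines, tested on the reads of a single strand, whereas a dyad holds the reads of both. The part of this difference in reads was not tested. CG dyads had 496 lower (0.0313%) and 505 higher (0.0318%), CCG pairs 23 and 3, and the other cytosines 2058 and 1388. Falls and rises were thus even in CG dyads and nearly all falls in CHG dyads. With no overlap between stages as the measure, 217393 CHG dyads (18.1%) were lower at S5, where 8.24% of all units were, and 67816 (5.63%) were higher, where 13.3% of all units were.

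The number of called dyads depended on single libraries, while the excess of falls did not. Without S3 replicate 1 or 2, 266 and 404 dyads were called lower and 2 and 5 higher. Without S5 replicate 1 or 2, 795 and 689 were called lower and 2 and 1 higher. Of the 1271 dyads, 935 also passed q of 0.01 in a quasi-binomial test. This test gave all CHG dyads the same dispersion of 1.06, so that the spread between replicates of a single dyad did not enter it. The limit of 25 points was not a sharp edge, since with q of 0.01 or less 44 dyads fell by 25 to 26 points and 57 by 24 to 25 points. At any q, 5808 dyads were lower by 25 points or more and 82 higher.

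The median level of the dyads called lower was 86.7% at S3 and 50.8% at S5, as the pooled reads gave it, against 93.2% and 91.8% over all dyads. At S3, 924 of them (72.7%) were at 80% or more, against 93.5% of all dyads. Of these falls, 925 reached 25 points on each strand. Another called dyad lay within 100 bp for 329 (25.9%), and 1271 calls formed 1077 groups at this distance. The share on chromosomes was 74.0%, against 53.8% of all dyads. Of the called dyads, 111 (8.73%) had a coverage above 3 times the median of a library, against 4.06% of all dyads, and the part of such coverage was not tested. By neighbours, 1.31% of dyads with 0, 0.825% with 1 to 2, 0.266% with 3 to 5, 0.0968% with 6 to 10 and 0.0889% with 11 or more were called lower. The shares with 0 and with 1 to 2 neighbours rested on 13 and 68 called dyads. Dyads with few neighbours also had a lower S3 level, and its part in these shares was not tested. The 8 dyads called higher had a median of 40.1% at S3 and 77.4% at S5.

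Single dyads showed what a called change looked like in reads. They were the largest changes, at most 1 per chromosome or scaffold, among called dyads out of 212217 with 10 or more reads on each strand in every library and none above 3 times the median coverage, with stages that did not overlap on either strand, which left 323 falls and 1 rise. Intervals here are 95% exact Clopper-Pearson intervals of single libraries. They cover counting error only, because reads without molecular identifiers are not independent molecules.

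The largest fall under these limits was at Ca6:1376035-1376037. Its level was 90.2% (78.6 to 96.7%) and 82.1% (70.8 to 90.4%) in the S3 libraries and 32.5% (18.6 to 49.1%), 30.9% (19.1 to 44.8%) and 31.6% (19.9 to 45.2%) in the S5 libraries. No interval of an S5 library reached an S3 interval. The forward strand had 15 of 15 and 21 of 25 reads methylated at S3 and 3 of 12, 8 of 20 and 4 of 11 at S5, and the reverse strand had 31 of 36 and 34 of 42 at S3 and 10 of 28, 9 of 35 and 14 of 46 at S5 (logistic regression, q = 7.55e-16). The 1 other dyad within 100 bp was also called lower, and 17 asymmetric cytosines were listed within 50 bp.

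The next fall was at scaffold88:228366-228368, on an unplaced sequence. Here the level was 91.7% (77.5 to 98.2%) and 93.0% (80.9 to 98.5%) at S3 and 47.4% (30.98 to 64.2%), 27.6% (12.7 to 47.2%) and 40% (23.9 to 57.9%) at S5 (q = 7.90e-11). The pooled change was -55.4 points on the forward and -51.4 points on the reverse strand. The rule of choice required both strands to separate the stages. The 1 other dyad within 100 bp was not called.

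The remaining fall was at Ca2:24236441-24236443, where the level was 73.8% (58.0 to 86.1%) and 76.5% (58.8 to 89.3%) at S3 and 31.8% (18.6 to 47.6%), 23.1% (11.1 to 39.3%) and 16.3% (6.81 to 30.7%) at S5 (q = 3.88e-09). This dyad had a single asymmetric cytosine listed within 50 bp, and of 2 other dyads within 100 bp, 1 was called lower. The only rise that met the rule was at scaffold674:54379-54381, with 45.5% (28.1 to 63.6%) and 28.2% (15.0 to 44.9%) at S3 and 70.7% (54.5 to 83.9%), 72.1% (56.3 to 84.7%) and 69.4% (51.9 to 83.7%) at S5 (q = 0.00273). Its S3 replicate 1 interval overlapped those of the S5 libraries.

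**Figure D4:**
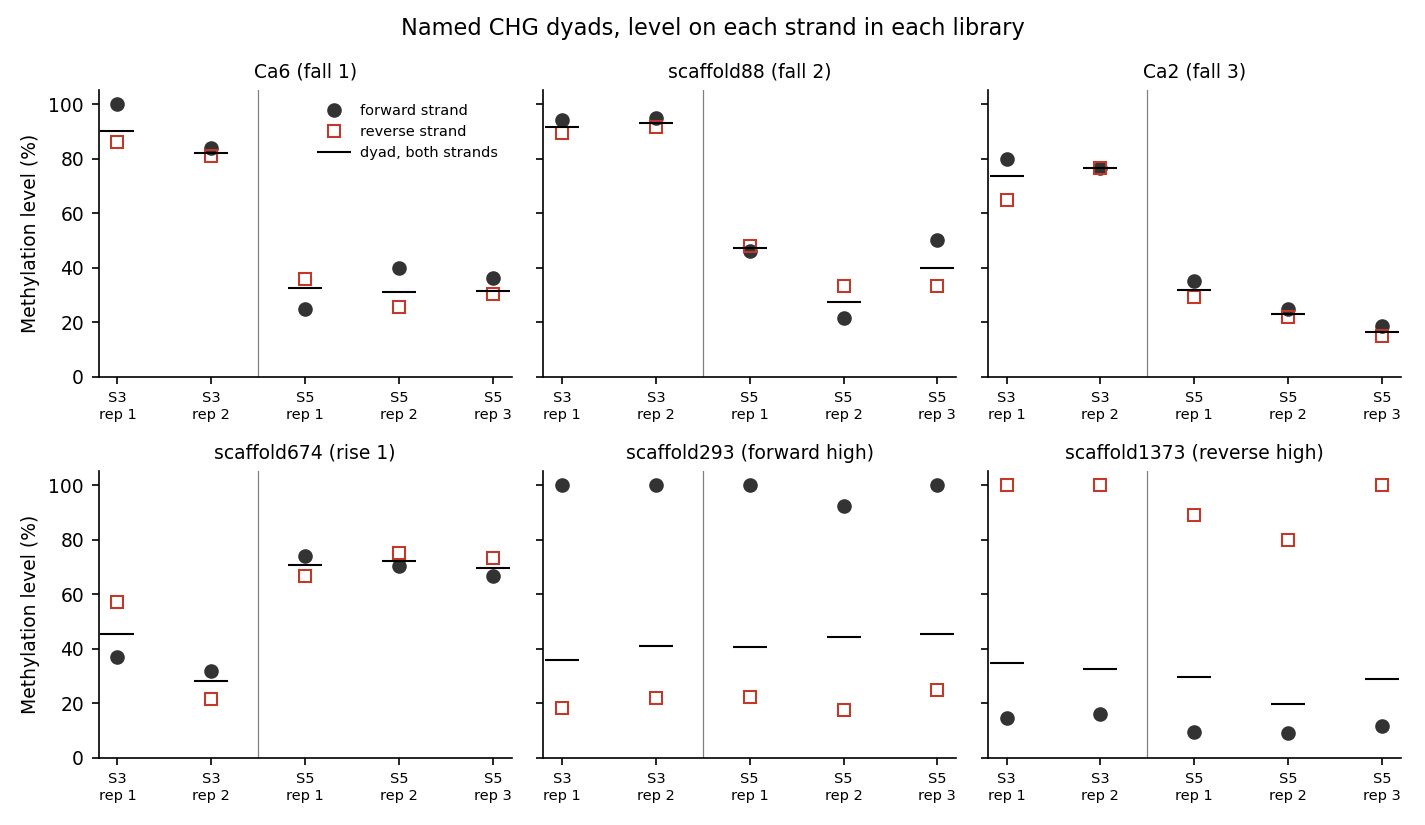
Methylation level (percent) of the forward strand (circles), the reverse strand (open squares) and the dyad (bars) in each library for the 3 falls and 1 rise chosen under the coverage limits, at most 1 per sequence, and for the dyads with the largest lasting strand difference in each direction under the same limits. In the first 4 panels both strands move between S3 and S5, as at the Ca6 dyad from 90.2% and 82.1% at S3 to 30.9 to 32.5% at S5, and in the last 2 panels the strands stay apart in all 5 libraries. Both features were set by the rules of choice.

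Strand agreement was the second property of the dyads. On average the strands were alike: the forward minus reverse level ranged from -0.0301 points in S5 replicate 2 to 0.00019 points in S3 replicate 1. Within single dyads the median absolute difference was 6.25 points in both S3 libraries and 6.99, 8.33 and 6.76 points in the S5 libraries. The strands were within 10 points of each other in 71.6% and 71.5% of dyads at S3 and in 66.7%, 59.9% and 67.3% at S5. The mean absolute difference was 7.92 points ± 0.0323 over the S3 libraries (SD, n = 2) and 9.22 points ± 0.698 over the S5 libraries (SD, n = 3), without overlap (exact permutation p = 0.1).

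Most of this difference was of the size that read sampling gives. The SD of the forward minus reverse level was 10.997 and 10.985 points in the S3 libraries and 12.2, 13.8 and 12.1 points in the S5 libraries, and the binomial sampling of the reads alone accounted for an SD of 10.2 points in both S3 libraries and of 11.4, 13.3 and 11.4 points in the S5 libraries. The excess, which is the root of the difference of the variances, was 4.14 points in both S3 libraries and 4.29, 3.77 and 4.19 points in the S5 libraries. It did not separate the stages (difference -0.059 points, exact permutation p = 1.0), and its sign turned to 0.098 points without S5 replicate 2 and to 0.158 points with 10 or more reads on each strand. A lasting strand difference, estimated from the covariance between libraries, had an SD of 4.03 to 4.66 points over the 10 pairs of libraries, within and between stages.

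A strand difference seen in 1 library was thus in part found again in the others. In S3 replicate 1, among dyads with 10 or more reads on each strand, 5681 had a forward strand higher by 30 points or more, by 39.4 points on average. In the other 4 libraries these dyads had a difference of 18.0, 18.7, 16.3 and 18.6 points, with the same sign in 70.3 to 75.8% of them. The 5679 dyads with the reverse strand higher gave -17.4, -18.0, -15.9 and -17.9 points.

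The excess was concentrated in dyads of low level. With classes from S3 replicate 1, the excess SD in the other libraries was 30.3 to 32.4 points under 40% and 15.6 to 18.0 points at 40 to under 60%. It was 7.21 to 9.07 points at 60 to under 80%, 3.81 to 4.33 points at 80 to under 90% and 1.65 to 2.48 points above this. A level under 40% over both strands thus often stood for strands of unlike level.

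**Figure D5:**
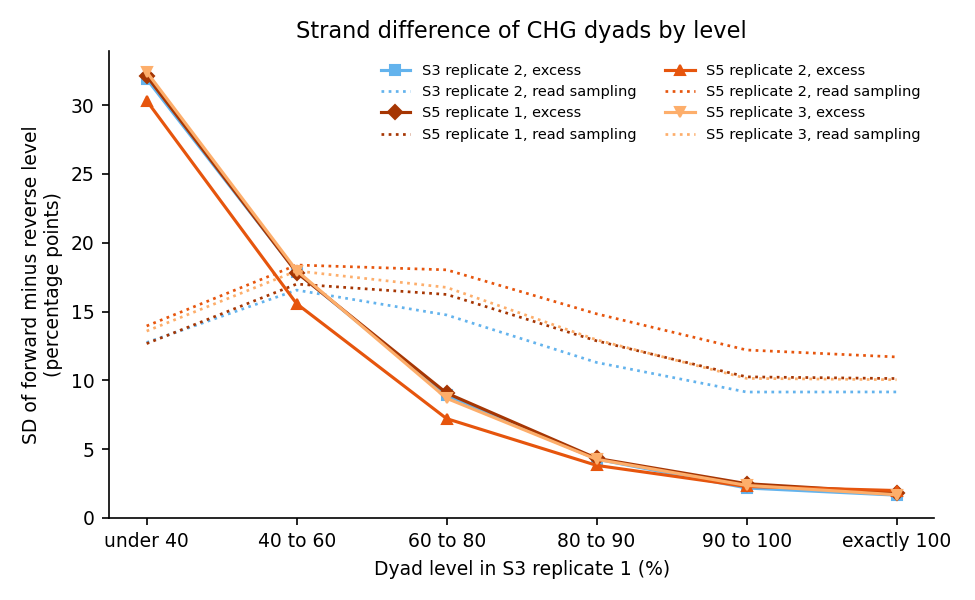
SD of the forward minus reverse level (percentage points) by dyad level in S3 replicate 1, measured in the 4 other libraries, split into the part given by read sampling (dotted) and the excess over it (solid). The excess is 30.3 to 32.4 points in dyads under 40% and falls to 1.65 to 1.98 points in dyads with every read methylated, where read sampling accounts for most of the spread.

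Dyads whose strands differed in a lasting way were called from the reads of all libraries pooled by strand (likelihood-ratio test, q of 0.01 or less over all pairs, 25 points or more and the same sign in 5 libraries). The forward strand was higher in 3543 dyads (0.294%) and the reverse strand in 3582 (0.298%), where 2.46% of all pairs were called in each direction. That background was set by CCG pairs, of which 24.96% and 24.85% were called, whereas CG dyads had 0.304% and 0.315%. CHG dyads thus had discordant strands about as seldom as CG dyads.

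The discordant CHG dyads combined a strand of usual level with a strand near the middle. The mean level of their higher strand was 88.0% and 87.9% at S3 and 87.1%, 86.3% and 87.8% at S5, and that of the lower strand was 50.3% and 49.6% at S3 and 48.4%, 48.8% and 48.8% at S5. The strands were not covered alike. The higher strand had a median of 20 and 20 reads at S3 and 19, 13 and 18 reads at S5, and the lower strand had 33 and 33 reads at S3 and 32, 21 and 31 reads at S5. Coverage was above 3 times the median of a library in 26.6% of these dyads, against 4.06% of all dyads. Only 26.6% lay on chromosomes, as 0.940% of dyads on unplaced sequences and 0.277 to 0.319% of those on each chromosome were discordant. The middle base was inferred from the listing, so that CCG sites whose inner cytosine was listed in no library may be among these dyads. The part of such sites, of read coverage and of the unplaced sequences in the discordance was not tested. Of the 7125 discordant dyads, 4 were also called lower at S5.

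The dyad with the largest lasting forward excess was at scaffold293:41140-41142. Its forward strand had 15 of 15 reads methylated in both S3 libraries and in S5 replicates 1 and 3 and 12 of 13 in S5 replicate 2. Its reverse strand had 18.2% (9.08 to 30.9%) and 21.7% (10.9 to 36.4%) at S3 and 22.4% (11.8 to 36.6%), 17.4% (4.95 to 38.8%) and 25% (12.7 to 41.2%) at S5, from 23 to 55 reads a library. The largest reverse excess was at scaffold1373:3480-3482, with 14.6% (6.07 to 27.8%) and 16.2% (8.67 to 26.6%) on the forward strand at S3 and 9.43% (3.13 to 20.7%), 8.93% (2.96 to 19.6%) and 11.5% (4.74 to 22.2%) at S5. Its reverse strand had 15 of 15 and 18 of 18 reads methylated at S3 and 16 of 18, 8 of 10 and 15 of 15 at S5. At both dyads the lower strand held more reads than the higher one in every library, and neither was called between stages.

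Whether the strands of a dyad changed together was examined with the reads of each stage pooled. Both strands were lower at S5 in 37.3% of dyads and both higher in 14.7%, while 41.8% had a strand on each side. The shares expected for strands that change independently were not computed. These shares alone therefore do not show that the strands fell together. The reads of the strands were counted separately, and whether their sampling errors are independent was not tested. The 31033 dyads whose forward strand was lower by over 20 points had a mean change of -10.5 points on the reverse strand, and the 31017 with such a fall on the reverse strand had -10.6 points on the forward strand, against -2.41 points on either strand over all dyads. The 4045 dyads with a forward rise of over 20 points had -1.75 points on the reverse strand. A large fall on a strand was thus shared in part by its partner, whereas a large rise was not. Only strands under 80% at S3 can rise by over 20 points, while 93.5% of all dyads were at 80% or more at S3. The part of the S3 level in this contrast was not tested. Over 1203712 dyads, r of the changes on the strands was 0.185, a description across dyads that share the same libraries.

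The changes were also compared between separate sets of libraries. The first set was S3 replicate 1 and S5 replicate 1, and the second was S3 replicate 2 and S5 replicates 2 and 3. Dyads that were lower by over 20 points in the first set (35342) had a mean change of -9.91 points in the second, against -2.29 points over all dyads. Dyads that were higher by over 20 points in the first set (3599) had -1.59 points in the second. Where a dyad fell by over 20 points in the first set, an adjacent dyad within 100 bp had a change of -6.54 points in the second set, against -2.14 points beside all dyads. The asymmetric cytosines within 50 bp of these dyads that were listed in all 5 libraries changed by 3.57 points in the second set, against 5.54 points beside all dyads. Large falls were thus recovered in part in other libraries and at adjacent dyads, and large rises were not. A rise of over 20 points in the first set needs a level under 80% in S3 replicate 1. By the pooled S3 reads, 93.5% of all dyads were at 80% or more. The change also depended on the S3 level, and the part of the S3 level in this contrast was not tested. The correlation of the change at a dyad in the first set with that at the next dyad in the second was 0.1197 at distances under 20 bp and 0.105 up to 50 bp (317666 and 293423 pairs of dyads), and it was 0.0581 to 0.0724 in the 4 classes of distance beyond 50 bp, without a steady order among them.

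Along the genome the lower level at S5 was present on every chromosome. The change was -2.50 to -2.70 points on Ca1 to Ca7, -3.45 points on Ca8 and -2.19 points on unplaced sequences, and the libraries of the stages overlapped on none of these. Ca8 held the fewest dyads per kb, 0.932 against 1.68 to 2.04 on the other chromosomes, and 0.482% of its 15351 dyads were called lower, against 0.101 to 0.176% on the others. The level on the other chromosomes exceeded that on Ca8 by 0.972 and 1.04 points in the S3 libraries and by 1.88, 1.98 and 1.73 points in the S5 libraries (difference 0.858 points, exact permutation p = 0.1). In 100 kb bins of the chromosomes with 20 or more dyads, the 809 sparsest bins (20 to 75 dyads) had a mean change of -4.17 points and the next 810, 811 and 816 bins had -3.05, -2.54 and -2.36 points. The S3 level of these sets of bins was 89.0%, 90.8%, 91.3% and 91.7%, so that sparser bins were lower at S3 and moved further.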

How the data were processed

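Per the labels and the study's methods, the authors filtered reads with NGS QC Toolkit, aligned them with Bismark 0.14.3 (default parameters, unique alignments) to kabuli chickpea genome version 1, and listed cytosines with 5 or more reads and a binomial p of 0.0001 or less against the chloroplast error rate. The processing notes also name methylKit 0.9.2. The deposited coverage column is the count of reads at each listed cytosine, and the authors gave the methylation level as the percent of those reads with C and with T. Their product gave whole methylated reads at every line. Cytosines given on more than 1 line (750 positions) were left out. The calling limit means that weakly methylated cytosines are missing, more so in shallow libraries.

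Dyads, CG dyads, CCG pairs and other cytosines were built from positions and strands alone. The dyads and all classes were chosen with earlier results of these data known. Groups and replicate numbers came from the labels. Tests were exact permutations over libraries, a logistic likelihood-ratio test per unit with Benjamini-Hochberg adjustment, and a quasi-binomial alternative with squeezeVar of limma 3.58.1 in R 4.3.3, whose prior dispersion for CHG dyads was 1.06 and common to all of them. Named dyads were the largest called falls (at most 3) and rises without overlap on either strand and the largest lasting strand difference in each direction, at most 1 per sequence and with 10 or more reads on each strand. Python 3.11.15 with numpy 2.4.6, pandas 2.3.3 and scipy 1.17.1 was used, and the tests were tested on simulated data. Coverage limits, 10 reads drawn per strand, other bins and windows, chromosomes alone and leaving out each library were tried as alternatives.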

Additional observations from a re-analysis of the deposited data

How the results depend on the processing

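In 10 stage comparisons of library means (the level, the shares of dyads at 90% or more and under 60%, the mean absolute strand difference, the gap to CG dyads and the 5 neighbour classes), all 122 values under the alternatives kept their direction. The excess strand SD (main value -0.0591) became 0.158 with a coverage minimum of 10 and 0.158 with 10 reads drawn per strand, and ranged from -0.163 to 0.0977 when 1 replicate was left out. The gap to CCG pairs turned to 1.02 with the outer cytosine alone. Calls of lower dyads (1271) became 210 at a limit of 40 points, 538 at a coverage minimum of 10, 13 with 10 reads drawn, 662 under a coverage maximum of 3 medians (fewer of all 10602600 units then passed) and 775 on chromosomes, and were 266 to 1070 with 1 replicate left out. The coverage minimum kept 252531 dyads, so that the called share was 0.213% (0.0602% of all units) against 0.106% (0.0339%), and 0.00515% (0.000484%) with 10 reads drawn. Calls of higher dyads (8) became 1 at 40 points, 5 with 25 points on each strand, 5 in the quasi-binomial test, 3 at the coverage minimum, 0 with 10 reads drawn, 3 under the coverage maximum and 2 on chromosomes, and were 1 to 6 with 1 replicate left out. Discordant dyads (7125) became 2463 at 40 points, 3646 at the coverage minimum, 2888 with 10 reads drawn and 1872 on chromosomes, which was 1.44%, 1.14% and 0.289% of the dyads in the last 3 settings (6.47%, 5.61% and 3.90% of all pairs) against 0.592% (4.91%). Dyads with both strands lower (37.3%) became 40.5% at the coverage minimum, 32.4% with 10 reads drawn, 37.0% under the coverage maximum and 37.8% on chromosomes, and were 32.7 to 38.0% with 1 replicate left out.

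By S3 level, bins from the pooled S3 reads gave 0.20 under 40%, -2.91 at 40 to 60%, -4.52 at 60 to 80%, -1.98 at 80 to 90% and -5.64 at exactly 100%, and bins from the mean of 5 libraries gave -4.79 under 40%, -10.2 at 40 to 60%, -8.58 at 60 to 80% and -0.863 at 90 to 100%. Under 40% the change was -3.96 with 10 reads drawn, -3.91 under the coverage maximum and -4.76 on chromosomes, where 40 to 60% gave -8.20. In all these cases the cause was not tested, except that pooled bins share their reads with the change. The change by S3 level could not be computed without an S3 replicate, since bins and change need both.

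Replicates share only a number (correlation of their deviations 0.0094), and a replicate block over replicates 1 and 2 gave 800 lower and 3 higher calls, 35.7% with both strands lower and a level difference of -2.77 (smallest p 0.5). Discordance has no stage term and was not run with the block. The median dyad coverage of 24 to 34 reads limits the precision of single dyads. Of 5808 dyads that were lower by 25 points or more, 1271 were called. The simulated data held falls of set size on the coverage of a sample of the dyads. The rate at which a true change is called with the adjustment over all 11334731 units was not tested.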
